A study of Homo sapiens with 12 samples.

Results

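The genes described here are the 9 genes of MHC class I and its peptide loading: HLA-B, HLA-C, HLA-E, HLA-F, B2M, TAP1, TAP2, TAPBP and NLRC5. They were taken by their symbols, and all 9 were found among the 20003 genes of the deposited tables. The samples were made from NB4, an acute promyelocytic leukemia line bearing the fusion PML-RARα, and Kasumi-1, an acute myeloid leukemia line bearing the fusion AML1-ETO. Each line was incubated for 48 h with 1 μM OGP46, a kaurene diterpenoid made from oridonin, or with DMSO as the control, with 3 samples in each of the 4 groups and 12 samples in all. The paper's methods and the labels both state 48 h, while a figure legend of the paper gives a longer time. Each line comes from a single patient's leukemia, and all that differs between the 2 lines cannot be told apart in a comparison of them. The paper describes its experiments as independently repeated, but the labels do not say whether the sequenced samples of a group were separate cultures. If they were not, p-values measure only the spread between samples, which may be technical. Expression was given as FPKM, fragments scaled by transcript length and by the fragments mapped in the sample, so that levels can be compared between genes.

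MHC class I molecules present short peptides from inside the cell to cytotoxic T cells. A heavy chain, encoded by HLA-B or HLA-C among others, pairs with β2-microglobulin, the product of B2M. The proteasome cuts the peptides, TAP1 and TAP2 form the transporter that moves them into the endoplasmic reticulum, and tapasin, the product of TAPBP, tethers the empty heavy chain to the transporter. HLA-E presents leader peptides of other heavy chains to receptors of NK cells, HLA-F is a further heavy chain of restricted expression, and NLRC5 is the transactivator of class I genes. In leukemia cells the level of these genes bears on whether T cells and NK cells can recognise them.

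The promoters of 7 members were in the RefSeq table, and 5 of them are printed with the 250 bases before the annotated start, 5′ to 3′ on the strand of the gene, in build GRCh38.p14. They are shown because they belong to both heavy chains that differed between the lines (HLA-B and HLA-C), to the gene with the largest difference (TAP1), and to 2 genes with a small difference between the lines (B2M and TAPBP). Capitals mark matches, on either strand, to the IRF core AANNGAAA, a kappa B-like sequence (GGG, any 2 bases, TT, any 1 base and CC), the Y box core GATTGG and the CRE half-site TGACG.
HLA-B (chr6:31357180-31357429, minus strand): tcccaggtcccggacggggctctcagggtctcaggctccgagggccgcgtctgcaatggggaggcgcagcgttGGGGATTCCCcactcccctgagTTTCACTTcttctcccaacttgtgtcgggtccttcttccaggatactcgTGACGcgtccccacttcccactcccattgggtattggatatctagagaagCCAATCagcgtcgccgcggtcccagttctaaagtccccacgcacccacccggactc
HLA-C (chr6:31272093-31272342, minus strand): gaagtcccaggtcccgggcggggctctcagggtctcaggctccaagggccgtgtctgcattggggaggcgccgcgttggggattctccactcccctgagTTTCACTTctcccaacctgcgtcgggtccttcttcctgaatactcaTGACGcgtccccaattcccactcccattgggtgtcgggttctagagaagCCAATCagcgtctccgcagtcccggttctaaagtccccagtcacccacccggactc
B2M (chr15:44711267-44711516, plus strand): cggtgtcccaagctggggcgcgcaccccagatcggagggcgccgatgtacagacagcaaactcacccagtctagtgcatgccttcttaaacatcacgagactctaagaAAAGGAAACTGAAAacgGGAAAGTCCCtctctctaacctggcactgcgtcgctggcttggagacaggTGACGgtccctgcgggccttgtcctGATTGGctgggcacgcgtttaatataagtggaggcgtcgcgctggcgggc
TAP1 (chr6:32853705-32853954, minus strand): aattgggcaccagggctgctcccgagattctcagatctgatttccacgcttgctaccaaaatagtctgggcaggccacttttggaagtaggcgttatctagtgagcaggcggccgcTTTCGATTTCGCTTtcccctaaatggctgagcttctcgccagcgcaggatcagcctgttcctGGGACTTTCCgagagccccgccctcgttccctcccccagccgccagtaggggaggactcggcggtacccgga
TAPBP (chr6:33314079-33314328, minus strand): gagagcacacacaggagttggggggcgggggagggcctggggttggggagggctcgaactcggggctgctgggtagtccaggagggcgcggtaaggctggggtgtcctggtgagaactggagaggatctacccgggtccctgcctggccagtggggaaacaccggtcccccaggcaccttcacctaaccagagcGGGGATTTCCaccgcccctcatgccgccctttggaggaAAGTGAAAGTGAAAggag

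The IRF core was found in all 7 promoters (in TAP1, which has 2 entries, only in the one printed), whereas 20.3% of 35116 promoters in the table hold it. The kappa B-like sequence was found in 4 of the 7 (HLA-B, B2M, TAP1 and TAPBP) and in 5.07% of all promoters. The Y box core was found in HLA-B, HLA-C, HLA-F and B2M, against 14.1% of all promoters, and the CRE half-site in HLA-B, HLA-C, B2M and TAP2, against 21.2%. In HLA-B, the IRF core began 155 bases, the CRE half-site 106 bases and the Y box core 56 bases before the start. The Y box core also began 56 bases before the start in HLA-C and 50 bases before it in B2M. The promoters of TAP1 and TAPBP held no Y box core and no CRE half-site. The motifs' letters were chosen after these promoters had been read, and a match is only a description of the sequence. HLA-B and B2M each held all 4 motifs, and TAP1 and TAPBP each held the IRF core and the kappa B-like sequence alone.

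All members but B2M and NLRC5 lie in the MHC on chromosome 6. TAP2 (chr6:32821831-32838739), TAP1 (chr6:32845209-32853704), and 2 genes of the immunoproteasome, PSMB8 (chr6:32840717-32844679) and PSMB9 (chr6:32854192-32859851), are neighbours, and the starts of TAP1 and PSMB9 lie 488 bases apart on opposite strands. TAPBP (chr6:33299694-33314078) lies apart from them. B2M is on chromosome 15 and NLRC5 on chromosome 16. Reads of some members cannot be assigned with certainty: of all windows of 50 bases in the annotated coding transcripts, 32.7% in TAP2, 27.3% in HLA-B, 22.8% in HLA-F and 15.0% in TAP1 also occurred in transcripts of other genes, on either strand. The share was between 5.76% and 6.17% in HLA-C, HLA-E and TAPBP, and 0 in B2M and NLRC5.

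The labels of the lines were checked with their defining genes. RUNX1T1, CD34, KIT and TRH, as genes of leukemia with AML1-ETO, summed to between 228 and 291 FPKM in the 6 Kasumi-1 samples and to between 0.155 and 2.81 FPKM in the 6 NB4 samples. The highest of these NB4 sums was in control 3, where CD34 stood at 1.31 FPKM and KIT at 1.22 FPKM. Granule genes (MPO, ELANE, PRTN3, AZU1, CTSG) summed to between 1586 and 3945 FPKM in NB4 and to between 7759 and 11917 FPKM in Kasumi-1. HGF and STAB1, taken for promyelocytic leukemia, overlapped between the lines as a sum, and of the 2 only STAB1 was higher in NB4. STAB1 lay between 9.09 and 15.5 FPKM in NB4 and between 0.208 and 0.626 FPKM in Kasumi-1. HGF was lower in the NB4 controls (7.65, 7.70 and 11.2 FPKM) than in the Kasumi-1 controls (12.9, 11.5 and 16.0 FPKM). With OGP46 its ranges overlapped between the lines. Of genes of other cells, those of NK cells summed to at most 0.139 FPKM and those of fibroblasts to at most 0.0165 FPKM. For T cells, CD3D reached between 13.5 and 34.6 FPKM in NB4 and CD8A between 2.45 and 4.04 FPKM in Kasumi-1, while CD3E stayed at or below 0.131 FPKM in all samples. CD3D was also higher with OGP46 (22.5 to 34.6 FPKM) than in the controls of NB4 (13.5 to 20.4 FPKM), and its part in the results was not tested.

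In the NB4 controls, B2M was by far the most abundant member, at 493 ± 40.6 FPKM (SD, n = 3), rank 70 of 20003 genes. HLA-B followed at 66.2 ± 18.5 FPKM, HLA-C at 44.4 ± 1.27 FPKM and HLA-E at 42.9 ± 4.93 FPKM. These 3 heavy chains are neighbours in the order of levels, and their ranges overlapped from each to the next. TAPBP came next at 16.3 ± 1.11 FPKM. TAP1 (7.51 ± 0.546 FPKM), TAP2 (7.23 ± 0.749 FPKM) and NLRC5 (7.14 ± 0.359 FPKM) then had overlapping ranges.

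In the Kasumi-1 controls, the order was different. B2M again ranked first at 406 ± 21.4 FPKM, but HLA-E came next at 39.9 ± 1.93 FPKM, ahead of HLA-B at 30.04 ± 8.75 FPKM, with overlapping ranges. TAPBP at 19.9 ± 1.08 FPKM stood above HLA-C at 12.8 ± 2.57 FPKM, the reverse of NB4. TAP2 (2.34 ± 0.581 FPKM), NLRC5 (0.830 ± 0.0946 FPKM) and TAP1 (0.545 ± 0.147 FPKM) were at the low end, with ranges apart from each other. HLA-F was listed at 0 in 11 of the 12 samples and at 0.00755 FPKM in the other one, Kasumi-1 OGP46 sample 1. It was below the filter on low values and entered only the alternative fits without that filter, from which no value of it is given.

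**Figure D1:**
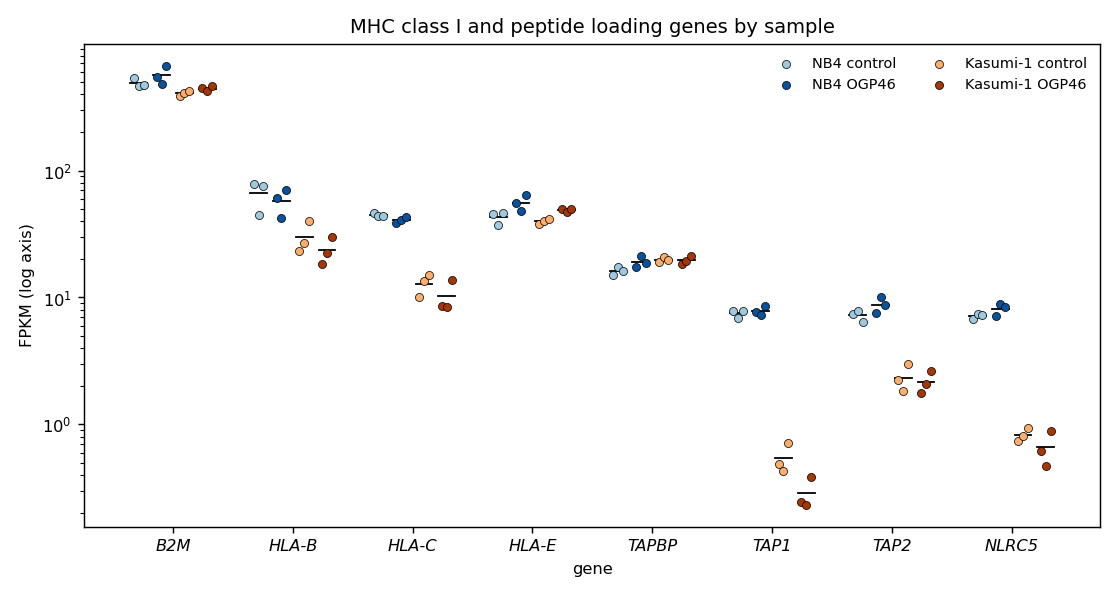
Level of 8 members (FPKM, log axis) in the 12 samples; each point is a sample, each bar the mean of 3 samples, and colours give the groups. TAP1 and NLRC5 stand at 6.75 to 8.96 FPKM in NB4 and below 1 FPKM in Kasumi-1. B2M, HLA-E and TAPBP each differ less between the lines, with NB4 control means 1.21, 1.08 and 0.817 times those of Kasumi-1.

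The first comparison asked how the 2 lines differ before OGP46. NB4 controls had more of the transporter, of the transactivator and of the classical heavy chains than Kasumi-1 controls, whereas B2M, TAPBP and HLA-E differed by less than the minimum size. Of the 8 members tested, 5 were higher in NB4 and 0 lower. A gene was called at an adjusted p (Benjamini-Hochberg, limma) below 0.05 and a log2 difference of at least 0.58, that is 1.49-fold, on log2(FPKM + 0.1). Among all 12302 genes tested, 52.4% were called, 22.7% as higher and 29.7% as lower in NB4. The median log2 difference was 1.37 over the 8 members and -0.10 over all genes, which TPM scaling moved to 0.099. In bulk samples such as these, fewer expressing cells and less RNA per cell cannot be told apart.

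TAP1, a subunit of the transporter, measured 7.82, 6.88 and 7.83 FPKM in the NB4 controls 1, 2 and 3. In the Kasumi-1 controls it measured 0.492, 0.432 and 0.711 FPKM. The groups were far apart, and the Kasumi-1 mean was 7.26% of the NB4 mean. The log2 difference was 3.58 (SE 0.167, adjusted p = 1.88e-07, limma), which was the largest of the members.

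TAP2, the other subunit, measured 7.42, 7.87 and 6.41 FPKM in NB4 and 2.22, 1.82 and 2.97 FPKM in Kasumi-1. The groups did not overlap, and the log2 difference was 1.61 (SE 0.169, adjusted p = 2.71e-05, limma). The subunits thus stood at unequal levels in Kasumi-1: the ratio of TAP1 to TAP2 FPKM was 1.05 ± 0.174 in the NB4 controls and 0.233 ± 0.0102 in the Kasumi-1 controls (SD, n = 3). This and the other ratios within a sample were chosen after the values had been seen and were given no test.

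NLRC5, the transactivator, measured 6.75, 7.45 and 7.22 FPKM in NB4 and 0.742, 0.817 and 0.930 FPKM in Kasumi-1. All Kasumi-1 samples lay below 1 FPKM, and the log2 difference was 2.96 (SE 0.118, adjusted p = 9.26e-08, limma).

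Of the classical heavy chains, HLA-C measured 45.9, 43.7 and 43.7 FPKM in NB4 and 10.03, 13.4 and 15.1 FPKM in Kasumi-1. HLA-B measured 77.7, 44.9 and 76.0 FPKM in NB4 and 23.2, 27.0 and 39.9 FPKM in Kasumi-1. Neither gene overlapped between the lines, but HLA-B varied more between the samples of a group, with control 2 the lowest in NB4 and control 3 the highest in Kasumi-1. The log2 difference was 1.80 (SE 0.133, adjusted p = 2.83e-06, limma) for HLA-C and 1.13 (SE 0.242, adjusted p = 0.00235, limma) for HLA-B.

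HLA-E measured 45.1, 37.2 and 46.3 FPKM in NB4 and 37.9, 39.95 and 41.8 FPKM in Kasumi-1. These ranges overlapped, and the log2 difference was 0.10 with a 95% confidence interval of -0.11 to 0.31 (adjusted p = 0.356, limma). B2M measured 539, 463 and 476 FPKM in NB4 and 384, 407 and 426 FPKM in Kasumi-1. It was higher in each NB4 sample by a difference below the minimum size, with a log2 difference of 0.28 (SE 0.0854, adjusted p = 0.0153, limma). TAPBP went the other way, with 15.1, 17.3 and 16.3 FPKM in NB4 and 18.9, 21.04 and 19.8 FPKM in Kasumi-1. Its log2 difference was -0.29 (SE 0.0798, adjusted p = 0.00894, limma), also below the minimum size. After quantile normalization B2M passed the threshold too, with a log2 difference of 0.64.

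Similarly, 30 further genes of the pathway were compared, of which all but HLA-G were expressed enough to be tested. Of these 29, 11 were higher and 7 lower in NB4, against 22.7% and 29.7% of all genes. With TPM scaling, where each sample is divided by its FPKM sum, the counts were 13 and 4, and of all 12302 genes 3585 and 3004.

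Of the 7 genes that supply peptides, 4 were higher in NB4 and 1 was lower, against 22.7% and 29.7% of all genes. PSMB9 and PSMB8 encode catalytic subunits of the immunoproteasome, and both were low in Kasumi-1. PSMB9 measured 7.43, 7.71 and 8.09 FPKM in the NB4 controls, while it was listed at 0, 0.0997 and 0.196 FPKM in the Kasumi-1 controls. The log2 difference was 5.44 (SE 0.334, adjusted p = 9.16e-07, limma), a size that depends on the pseudocount and ran from 3.00 to 6.99 over the other settings. PSMB8 measured 23.5, 24.9 and 21.7 FPKM in NB4 and 1.84, 2.06 and 3.39 FPKM in Kasumi-1. The log2 difference of PSMB8 was 3.26 (SE 0.194, adjusted p = 7.76e-07, limma). PSME2, a subunit of the proteasome activator PA28, and ERAP2, a peptidase that trims peptides in the endoplasmic reticulum, were also higher in NB4, with log2 differences of 1.03 and 0.91. ERAP1, the related peptidase, was lower in NB4, with a log2 difference of -0.86. Thus the 4 neighbouring genes on chromosome 6 all passed the threshold in the same direction, as did 22.7% of all genes. The Kasumi-1 level was 32.3% of the NB4 level for TAP2, 10.4% for PSMB8, 7.26% for TAP1 and 1.27% for PSMB9. These 4 were no list fixed beforehand and were not tested as a set, and part of the windows of TAP2 (32.7%) and TAP1 (15.0%) occurs in other genes.

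Against 29.7% lower and 22.7% higher among all genes, 2 of the 4 chaperones of the endoplasmic reticulum were lower in NB4 and 0 higher. These were CALR (calreticulin) with a log2 difference of -0.76 and CANX (calnexin) with -0.61, and neither held its call with TPM scaling, where the values were -0.56 and -0.40. After quantile normalization the difference of CALR was only -0.065 (adjusted p = 0.378, limma), and its adjusted p ran from 2.91e-05 to 0.378 over the alternatives. CANX also missed the minimum size without NB4 control 3 (-0.55) or without Kasumi-1 control 2 (-0.58).

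Of the 15 regulators, 8 passed the threshold, near the share of 52.4% among all genes, with 5 higher and 3 lower in NB4. Among those higher, the interferon γ receptor chains IFNGR1 and IFNGR2 had log2 differences of 0.70 and 0.73, and IRF1, which binds the IRF core, had 0.62, below the minimum size without Kasumi-1 control 1 (0.48) or with a pseudocount of 1 FPKM (0.49). RFX proteins and NF-Y bind class I promoters together with NLRC5, and their genes did not move one way. RFXAP was higher in NB4 (log2 difference 0.97), whereas RFX5 (-0.76) and NFYA (-1.51) were lower, RFX5 not with TPM scaling (-0.56). CIITA, the transactivator of class II genes, was lower in NB4 at 0.0627, 0.0460 and 0.0350 FPKM against 0.356, 0.295 and 0.345 FPKM, with a log2 difference of -1.55 (adjusted p = 7.47e-05, limma). So the paralogous transactivators NLRC5 and CIITA differed between the lines in opposite directions. With a pseudocount of 1 FPKM the log2 difference of CIITA was -0.35, below the minimum size.

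Of the class I-like genes, 3 were tested and all 3 differed, where 52.4% of all genes did. FCGRT, the heavy chain of the neonatal Fc receptor that also pairs with β2-microglobulin, measured 2.05, 4.42 and 2.71 FPKM in NB4 and 82.3, 95.9 and 82.0 FPKM in Kasumi-1. Its log2 difference was -4.85 (SE 0.228, adjusted p = 1.97e-07, limma). CD1D, which presents lipids, measured 0.832, 1.61 and 0.745 FPKM in NB4 and was listed at 0 in each Kasumi-1 sample. MR1, which presents vitamin B metabolites, was higher in NB4 with a log2 difference of 0.64, and it lost its call without NB4 control 1 (0.51), without Kasumi-1 control 1 (0.48), with a pseudocount of 1 FPKM (0.42) or with no filter on low values, where the adjusted p was 0.0572 in a range of 0.000939 to 0.0572 over the alternatives.

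**Figure D2:**
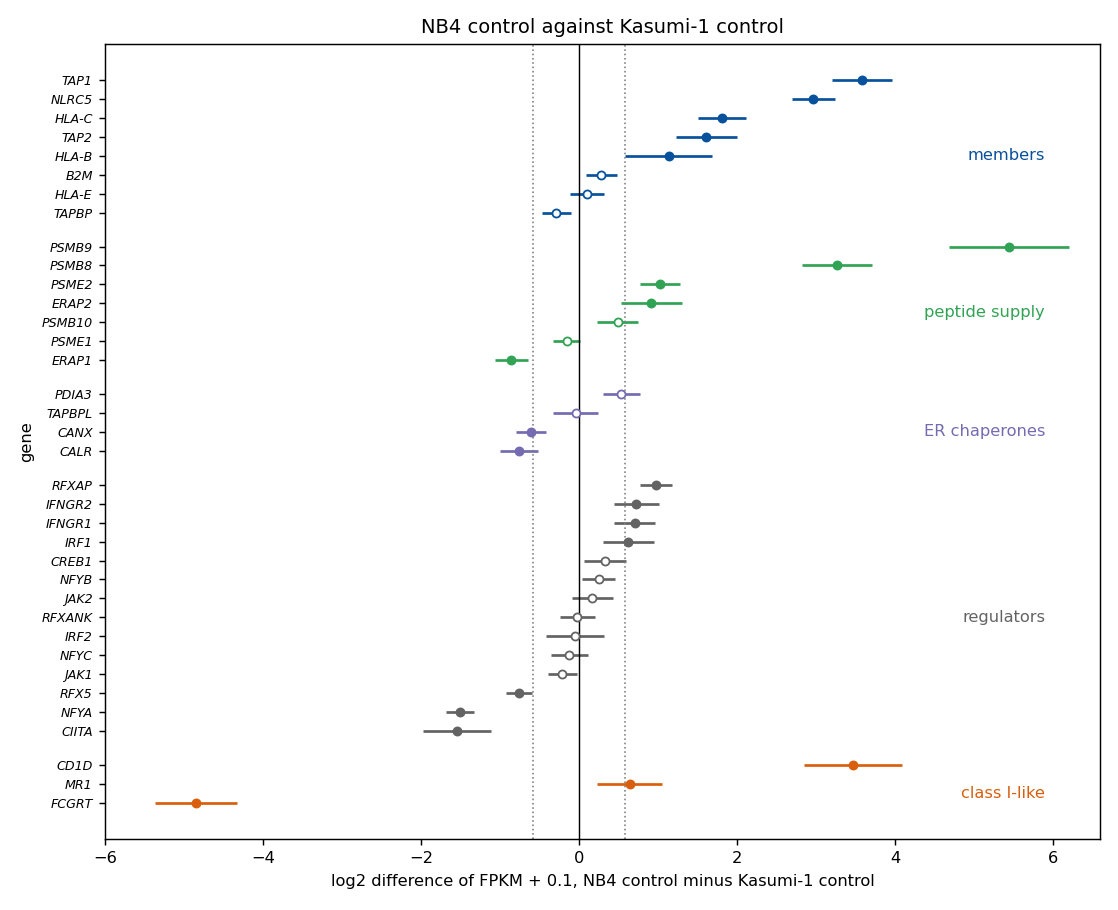
Difference between the NB4 and Kasumi-1 controls for 8 members and genes of the pathway; the x axis gives the log2 difference of FPKM + 0.1, points the estimate, lines its 95% confidence interval, filled points the genes past the threshold and dotted lines the minimum size. TAP1, NLRC5, HLA-C, TAP2 and HLA-B are filled and to the right, PSMB9 and FCGRT are the farthest points on either side, and B2M, HLA-E and TAPBP are open points near 0.

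The next comparison asked how NB4 cells changed with OGP46. No member passed the threshold, but HLA-E was higher in all 3 OGP46 samples while HLA-B and HLA-C were lower in each same-numbered pair. The share of all genes lower in 3 of 3 pairs was not counted. By limma, 0 of the 8 members tested passed, against 1.56% of 11750 genes, and 2 members (HLA-E and TAPBP) had an unadjusted p under 0.05, against 29.1% of genes. The log2 fold changes of all genes had a median of 0.18 in NB4, and those of the 8 members a median of 0.19. Centring each sample on its median moved that of all genes to -0.042.

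HLA-E measured 45.1, 37.2 and 46.3 FPKM in the NB4 controls and 55.7, 47.7 and 63.8 FPKM with OGP46. The groups did not overlap, and the ratio of OGP46 to control was 1.23, 1.28 and 1.38 in the pairs 1, 2 and 3. The log2 fold change was 0.37 (SE 0.126, adjusted p = 0.108, limma), and after median centring it was 0.15. TAPBP measured 15.1, 17.3 and 16.3 FPKM in the controls and 17.5, 21.4 and 18.7 FPKM with OGP46, without overlap, and its log2 fold change of 0.24 (SE 0.0997, adjusted p = 0.160, limma) was close to the median of all genes.

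HLA-B measured 61.3, 42.1 and 70.6 FPKM with OGP46, against 77.7, 44.9 and 76.0 FPKM in the controls. It was lower in 3 of 3 pairs, by less than the spread between samples, with a log2 fold change of -0.18 (SE 0.245, adjusted p = 0.633, limma) that was 0.033 without OGP46 sample 2. HLA-C measured 38.5, 40.9 and 43.3 FPKM with OGP46, all below the controls, which began at 43.7 FPKM. The log2 fold change of HLA-C was -0.12 (SE 0.0751, adjusted p = 0.300, limma). In total 2 members lay above and 1 below the controls without overlap, against 32.7% and 1.91% of all genes.

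B2M measured 544, 483 and 668 FPKM with OGP46, where sample 3 stood above the others, and the log2 fold change was 0.19 (SE 0.123). TAP2 measured 7.57, 10.2 and 8.67 FPKM and NLRC5 7.14, 8.96 and 8.34 FPKM with OGP46, both overlapping with the controls. Their log2 fold changes were 0.27 (SE 0.130) and 0.18 (SE 0.108), with adjusted p of 0.199 and 0.281 by limma. TAP1 measured 7.63, 7.29 and 8.57 FPKM with OGP46. Its log2 fold change was the smallest of the tested members in absolute size, at 0.06 with a 95% confidence interval of -0.18 to 0.29. It became -0.16 after median centring. The signs for B2M and NLRC5 also turned after median centring, to -0.033 and -0.037.

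Same-numbered samples tended to vary together within each line, though the numbers 1 and 3 of NB4 were hardly told apart. With the replicate number as a block, still 0 members passed, against 6.21% of all genes. At any size, 1 member (HLA-E) then had an adjusted p below 0.05, against 22.9% of all genes. That of HLA-E was 0.00787 with the block, and its adjusted p ran from 0.00787 to 0.528 over all alternatives. Which members were below 0.05 depended on the scaling. With the block and median centring, HLA-B (-0.40, adjusted p = 0.00607, limma) and HLA-C (-0.34, adjusted p = 0.00696, limma) were below 0.05 and HLA-E was not (0.15, adjusted p = 0.0683, limma). With the block and TPM scaling, all 3 were below 0.05, with log2 fold changes of -0.31 for HLA-B, -0.25 for HLA-C and 0.25 for HLA-E. All these sizes were below the minimum, and over the alternatives the adjusted p ran from 0.00607 to 0.98 for HLA-B and from 0.00696 to 0.63 for HLA-C. Of the pathway genes, 0 of 28 passed in NB4 without the block, against 1.56% of all genes. An unadjusted p under 0.05 was found for 12 of the 28, against 29.1% of all genes. With the block 2 of 28 passed, against 6.21% of all genes. These were IFNGR1, a chain of the interferon γ receptor, with a log2 fold change of 0.62 (adjusted p = 0.0843, and 0.00111 with the block, limma), and MR1 with 0.64 (adjusted p = 0.0723, and 0.00387 with the block, limma). IFNGR1 measured 12.7, 9.58 and 11.4 FPKM in the controls and 21.4, 13.1 and 18.2 FPKM with OGP46, and MR1 measured 2.52, 1.87 and 1.90 FPKM in the controls and 3.68, 2.70 and 3.60 FPKM with OGP46. Neither overlapped between the groups. Both passed without the block when OGP46 sample 2 was left out (0.82 and 0.78), and neither passed with the block after median centring, where the log2 fold changes were 0.40 and 0.42. Their adjusted p ran from 0.00111 to 0.343 and from 0.00387 to 0.258 over the alternatives.

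In Kasumi-1 cells, no member passed the threshold either, while TAP1 was lower and HLA-E higher in all 3 OGP46 samples. The paper, at a corrected p of 0.05 and the same minimum size, reported TAP1 as significantly reduced in Kasumi-1. It also listed TAP1 in the phagosome pathway. The main fit here did not call TAP1. That fit called 4 of all 11835 genes tested, 2 as higher and 2 as lower with OGP46. The paper listed many more genes as changed in this line, so the missing call is not particular to TAP1. Why the numbers of called genes differ was not tested. By limma, 0 of the 8 members passed, against 0.0338% of 11835 genes, and 2 of them (HLA-E and TAP1) had an unadjusted p under 0.05, against 15.6% of genes. The median log2 fold change was -0.21 over the members and 0.05 over all genes.

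TAP1 measured 0.492, 0.432 and 0.711 FPKM in the Kasumi-1 controls and 0.246, 0.232 and 0.385 FPKM with OGP46. The groups did not overlap, and the ratios in the pairs 1, 2 and 3 were 0.501, 0.537 and 0.542. The log2 fold change was -0.73 (SE 0.233, 95% confidence interval -1.25 to -0.21, adjusted p = 0.183, limma), and since the levels were low it was -0.26 with a pseudocount of 1 FPKM. With the replicate block the adjusted p was 0.0525. It passed the threshold when the block was combined with median centring (-0.80, adjusted p = 0.0252, limma) or with TPM scaling (-0.72, adjusted p = 0.0343, limma), and over all alternatives the adjusted p ran from 0.0252 to 0.411. With the block, the share of all genes past the threshold was 0.617%. TAP2 did not follow, at 1.75, 2.08 and 2.62 FPKM against 2.22, 1.82 and 2.97 FPKM, with a log2 fold change of -0.105 (SE 0.187, adjusted p = 0.818, limma). The ratio of TAP1 to TAP2 was therefore lower with OGP46, at 0.133 ± 0.0186 against 0.233 ± 0.0102 in the controls (SD, n = 3), without overlap. In NB4 the same ratio overlapped between the groups, at 0.905 ± 0.162 and 1.05 ± 0.174.

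HLA-E measured 37.9, 39.95 and 41.8 FPKM in the Kasumi-1 controls and 50.1, 46.9 and 50.02 FPKM with OGP46. All 3 OGP46 samples lay above all controls, and the pair ratios were 1.32, 1.18 and 1.20. The log2 fold change was 0.30 (SE 0.0606, adjusted p = 0.0868, limma), below the minimum size. With the block, its adjusted p was 0.0286, and it ran from 0.00535 to 0.381 over the alternatives.

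The classical heavy chains were lower in 3 of 3 pairs, for which the share of all genes was not counted. HLA-B measured 18.3, 22.5 and 30.1 FPKM with OGP46, and sample 3 was again the highest, as it was in the controls. HLA-C measured 8.58, 8.42 and 13.8 FPKM with OGP46. Both overlapped with the controls, with log2 fold changes of -0.34 (SE 0.206, adjusted p = 0.451, limma) for HLA-B and -0.34 (SE 0.195, adjusted p = 0.424, limma) for HLA-C. At any size, 2 members (HLA-E and HLA-B) had an adjusted p below 0.05 with the block, against 3.56% of all genes. That of HLA-B was 0.0192 with the block, and over the alternatives it ran from 0.00624 to 0.851. HLA-C (-0.40, adjusted p = 0.0168, limma) was also below 0.05 with the block and median centring, as were HLA-C and B2M with the block and TPM scaling, all below the minimum size. Over the alternatives the adjusted p of HLA-C ran from 0.0168 to 0.851 and that of B2M from 0.0182 to 0.694.

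NLRC5 measured 0.620, 0.473 and 0.888 FPKM with OGP46 and was lower in 3 of 3 pairs, with a log2 fold change of -0.32 (SE 0.206, adjusted p = 0.471, limma). B2M measured 445, 422 and 461 FPKM and TAPBP 18.3, 19.5 and 21.4 FPKM with OGP46. Both overlapped with their controls, and their log2 fold changes were 0.13 (SE 0.0718) and -0.014 (SE 0.0740). Without overlap, 1 member lay above and 1 below the controls in Kasumi-1, against 17.4% and 5.23% of all genes. Of the 27 pathway genes tested in Kasumi-1, 0 passed with or without the block, and 7 had an unadjusted p under 0.05, against 15.6% of all genes. PSMB9 remained at or below 0.196 FPKM with OGP46, and PSMB8 stood at 1.53, 1.84 and 2.58 FPKM.

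**Figure D3:**
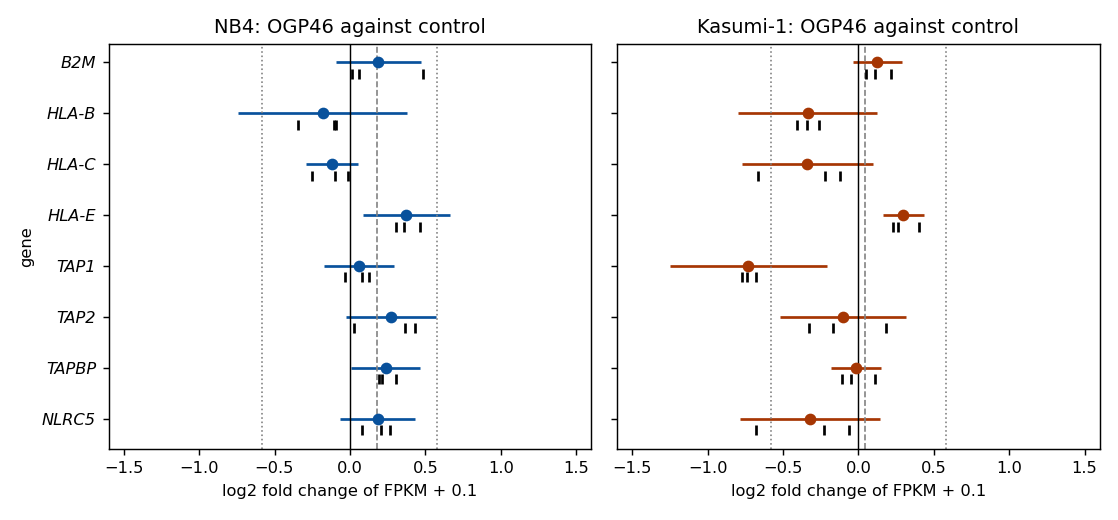
Response of 8 members to OGP46 in NB4 (left) and Kasumi-1 (right); points give the log2 fold change of FPKM + 0.1, lines its 95% confidence interval, small ticks the 3 same-numbered pairs, the dashed line the median of all genes and dotted lines the minimum size. HLA-E lies to the right of 0 in every pair of both lines, HLA-B and HLA-C lie to the left, and TAP1 is past the minimum size in Kasumi-1, where its interval runs from -1.25 to -0.21.

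The last comparison tested whether the response to OGP46 differed between the lines, as an interaction of cell line and treatment. The response of TAP1 was higher in NB4 than in Kasumi-1 by 0.79 on the log2 scale, and this passed only with the replicate block. Without the block, 0 of the 8 members passed an adjusted p of 0.05 by limma, as did 0 of 12309 genes, and 1 member (TAP1) and 11% of all genes had an unadjusted p under 0.05. The adjusted p of TAP1 was 0.278 without the block and 0.0241 with it. With the block 1 of 8 members passed, against 1.93% of all genes. As the fold changes of all genes differed between the lines by a median of 0.12, the value for TAP1 after median centring was 0.64, with an adjusted p of 0.0508 with the block. Over the alternatives the difference for TAP1 ran from 0.31, with a pseudocount of 1 FPKM, to 0.96, and its adjusted p from 0.0241 to 0.713.

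For HLA-E the difference of the responses was 0.08 with a 95% confidence interval of -0.24 to 0.40 (adjusted p = 0.856, limma). For HLA-B it was 0.16 (95% confidence interval -0.66 to 0.97) and for HLA-C 0.22 (-0.32 to 0.75), with adjusted p of 0.888 and 0.737 by limma. NLRC5 had a difference of 0.50 (SE 0.241, adjusted p = 0.462, limma), TAP2 0.38 (SE 0.256) and TAPBP 0.25 (SE 0.125), and B2M 0.06 (SE 0.15). The signs for HLA-E and B2M turned with TPM scaling, median centring and quantile normalization. None of the 29 pathway genes tested passed, with or without the block, and 3 had an unadjusted p under 0.05, against 11% of all genes.

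**Figure D4:**
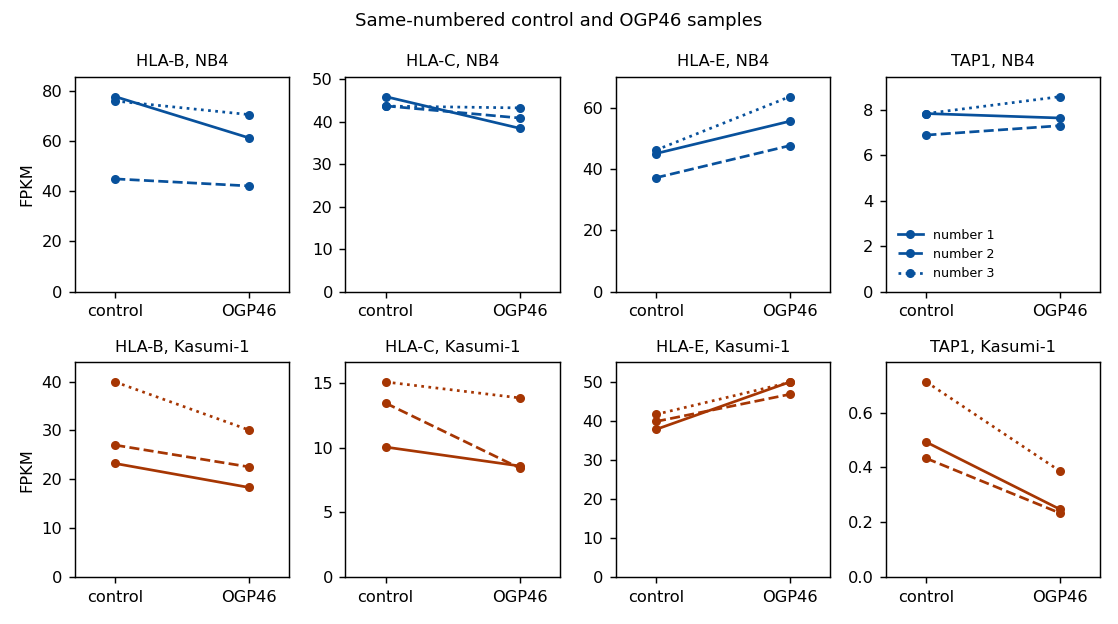
Levels of HLA-B, HLA-C, HLA-E and TAP1 (FPKM, axes from 0) in same-numbered control and OGP46 samples of NB4 (top) and Kasumi-1 (bottom); each line joins a pair. HLA-E is higher and HLA-B and HLA-C are lower with OGP46 in all 3 pairs of each line, and TAP1 is lower in the 3 pairs of Kasumi-1, with pair ratios of 0.501, 0.537 and 0.542.

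Within a sample, the classical heavy chains stood lower against HLA-E with OGP46. The ratio of HLA-B to HLA-E was 1.52 ± 0.277 in the NB4 controls and 1.03 ± 0.128 with OGP46, and it was 0.748 ± 0.183 and 0.482 ± 0.118 in Kasumi-1 (SD, n = 3), without overlap in either line. The ratio of HLA-C to HLA-E was 1.05 ± 0.118 and 0.742 ± 0.0995 in NB4, without overlap, and 0.320 ± 0.0499 and 0.209 ± 0.0587 in Kasumi-1, with overlap. The ratio of HLA-B to HLA-C, in contrast, overlapped between the groups of each line, at 1.49 ± 0.398 and 1.42 ± 0.336 in NB4 and 2.32 ± 0.320 and 2.33 ± 0.302 in Kasumi-1.

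The lines were also set side by side with OGP46, as values with no test. The NB4 mean was 27.2 times the Kasumi-1 mean for TAP1, 12.3 times for NLRC5, 4.09 times for TAP2, 3.98 times for HLA-C, 2.45 times for HLA-B and 1.28 times for B2M, and none of these 6 overlapped. In the controls the ratios had been 13.8, 8.6, 3.10, 3.46, 2.20 and 1.21. HLA-E and TAPBP overlapped between the lines with OGP46. The share of all genes without overlap between the lines with OGP46 was not counted. In NB4, the ranges of HLA-E and HLA-C overlapped in the controls, while HLA-E stood above HLA-C with OGP46.

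For 3 members the genes with the most similar pattern were sought among the 9935 genes that averaged 1 FPKM or more, by the root mean square difference of centred log2 values over the 12 samples. For TAP1 these were ZYG11A (0.22), RPS6KA1 (0.29) and TWIST1 (0.29). RPS6KA1, for example, had a mean of 44.5 FPKM in the NB4 controls and 2.57 FPKM in the Kasumi-1 controls. Of the members, NLRC5 was closest to TAP1, at 0.44. For HLA-B they were HLX (0.23), ARHGEF17 (0.24) and BTN3A1 (0.26), while HLA-C stood at 0.43. For B2M they were RPS6KA3 (0.050), RIC8B (0.064) and CDC5L (0.065), and of the members HLA-E was closest at 0.14. For a gene that varies little, such as B2M, a small value can mean only that the other gene also varies little. HLA-F, listed at 0 in 11 of the 12 samples, stood at 0.21 from B2M, closer than TAPBP at 0.30. The search is a description over samples that share 2 lines.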

How the data were processed

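mRNA-seq was measured in 12 samples of 2 cell lines, which the labels assign to a line and a treatment. Oligo(dT) was used to select the mRNA, and the kit was a stranded one per the labels. The authors deposited 1 FPKM value per gene symbol and sample. The submitters' processing notes name Trimmomatic, HISAT2, Cufflinks, HTSeq and hg38. The annotation, and whether the counting used strand, are not given in the sources used here. Read counts and depth are unknown, so no interval for counting error was given, and precision rests on 3 samples per group. The FPKM summed to between 248207 and 310262 per sample, and 9339 to 9746 genes reached 1 FPKM. Each sample held 27 symbols that appeared as dates or, in Kasumi-1 control 1, as serial numbers of days, and these were not used.

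The values were analysed as log2(FPKM + 0.1) for genes that averaged 0.1 FPKM or more in the samples of a fit. Tests used limma 3.58.1 in R 4.3.3 (empirical Bayes with a mean-variance trend) with adjustment over all genes tested, and called a gene at an adjusted p below 0.05 and a log2 difference of at least 0.58, or at the adjusted p alone for the interaction. The scripts were tested on simulated data. With 3 against 3 samples an exact permutation test cannot go below p = 0.10, so none was run. The fits were OGP46 against control within a line, the interaction in 1 model of the 12 samples, and NB4 against Kasumi-1 controls. Tables were handled with Python 3.11.15 and pandas 2.3.3.

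The labels number the samples of each group 1 to 3. Deviations of same-numbered control and OGP46 samples from their group means correlated with r of 0.355, 0.622 and 0.197 in NB4 and 0.218, 0.157 and 0.395 in Kasumi-1. As all were over 0.1, the number was taken to pair samples within a line. Differently numbered samples had r from -0.468 to 0.224 in NB4 and from -0.278 to 0.101 in Kasumi-1. In NB4, control 1 with OGP46 sample 3 (0.224) and control 3 with OGP46 sample 1 (0.175) were near the same-numbered 0.197. The pairing is therefore uncertain, and the results with the block rest on it. The fit with the replicate number as a block is given beside the main fit where it changes a call or a count. The alternatives changed the pseudocount (1 or 0.01), the filter (none, or 1 FPKM on average), the scaling (to TPM, to the median or by quantiles), the estimation (robust) and the samples (all 12 in a joint model, or each left out in turn).

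The 9 members were all described. The 30 pathway genes (7 for peptide supply, 4 chaperones, 15 regulators, 4 class I-like genes) were named where they passed a threshold in any comparison, with or without the block, or as examples. The marker lists were granule genes, genes of promyelocytic and of t(8;21) leukemia, and genes of T cells, NK cells and fibroblasts. Some items counted in these lists are not reported here. The members and lists were chosen with earlier results of these data known. Promoters and gene positions come from RefSeq (GRCh38.p14), and shared windows of 50 bases from GENCODE transcripts. HLA-E and NLRC5 have no entry in the promoter table.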

Additional observations from a re-analysis of the deposited data

Results flagged for a closer look

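The response of TAP1 to OGP46 differed between the lines by 0.79 on the log2 scale (NB4 minus Kasumi-1) with the replicate number as a block, by the interaction term of limma (adjusted p = 0.0241). It was flagged because of this difference between the lines. The log2 fold change was 0.06 in NB4, where 2 of 3 pairs were higher with OGP46, and -0.73 in Kasumi-1, where 3 of 3 pairs were lower. Without the block the adjusted p was 0.278, and with the block and median centring the difference was 0.64 (adjusted p = 0.0508). Over the alternatives the difference ran from 0.31 to 0.96 and the adjusted p from 0.0241 to 0.713.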

How the results depend on the processing

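Between the controls of the lines, 5 members were higher in NB4 under every setting but quantile normalization, where there were 6, and no member changed direction. Of the pathway genes, TPM scaling with and without the replicate block left 4 lower in NB4 in place of 7. The numbers do not pair the controls across the lines (r = -0.049, 0.018 and -0.0047). The replicate block left this comparison at 5 members and 11 and 7 pathway genes, and of all genes 2792 were higher and 3674 lower in place of 2790 and 3659.

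For OGP46, the replicate block and the joint model each raised the pathway genes past the threshold in NB4 from 0 to 2. The block also raised the share of all genes from 1.56% to 6.21%. Leaving out a sample gave 0 to 3. In Kasumi-1, the block with median centring or with TPM scaling called 1 member as lower in place of 0. The block called 1 member in the interaction in place of 0. The block changed no other call.

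Several members near 0 changed sign. In NB4, TAP1 was -0.066 with TPM scaling (with and without block), -0.16 with median centring (with and without block) and -0.14 with quantile normalization. Median centring with and without block gave -0.033 for B2M and -0.037 for NLRC5, and quantile normalization -0.0165 for NLRC5. In Kasumi-1, TAPBP was 0.0056 with TPM scaling, with and without block. In the interaction, HLA-E was -0.069 with TPM scaling and -0.073 with median centring, with and without block, and -0.081 with quantile normalization. B2M was -0.085, -0.088 and -0.045 in the same order. Leaving out a sample gave -0.44 to 0.033 for HLA-B and -0.0072 to 0.11 for TAP1 in NB4. In Kasumi-1 it gave -0.26 to 0.074 for TAP2 and -0.073 to 0.040 for TAPBP. In the interaction it gave -0.10 to 0.37 for HLA-B, -0.025 to 0.18 for HLA-E and -0.065 to 0.17 for B2M. The causes were not tested.

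With 3 samples per group and unknown depth, low levels such as TAP1 and NLRC5 in Kasumi-1 carry an unknown counting error. The filter at a mean of 1 FPKM removed both from the Kasumi-1 fit, so these values were not available under it.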
